A study of Mus musculus with 6 samples.

Results

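The genes described here encode enzymes and metal-binding proteins that limit oxidants: the NRF2 regulators and their target enzymes, the enzymes that make and use glutathione, metallothioneins, thioredoxins, peroxiredoxins, superoxide dismutases, catalase and glutathione peroxidases. They were taken from a list of 34 genes by a fixed rule, which asked for a probe set that the platform annotation assigns to that gene alone and a mean log2 value of at least 5 over the 6 arrays. The probe set with the highest mean stood for each gene. The rule kept 30 of the 34 genes, out of 12098 genes measured above that level. Sod3, the extracellular superoxide dismutase gene, was left out at a mean of 3.855, and the lowest member kept was Mt3 at 5.88. Prdx1 was left out because all of its probe sets name a further gene as well, and Prdx5 and Prdx6 have no probe set in the annotation used.

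RNA came from embryos of embryonic day 13.5, from tissue labelled as retinal pigmented epithelium (RPE), the layer of pigment cells behind the neural retina. The albino group and the pigmented group held 3 arrays each, and each array carried 100 ng of total RNA from a pool of 3 to 4 littermates. The labels give the genotypes only as albino and pigmented, with no strain, no mutated gene and no treatment, and they call the 3 pools of a genotype biological replicates. The neural retina, lens, cornea and tissue outside the eye were dissected away per the labels, although the sample description also speaks of the whole eye region.

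Melanin can bind metals and take up reactive oxygen species, and its synthesis also yields oxidants, which is why oxidant defence genes are of interest in pigment cells with and without melanin. The transcription factor NRF2, encoded by Nfe2l2, is held in the cytoplasm and marked for breakdown by KEAP1. Oxidants and electrophiles modify KEAP1, and NRF2 then binds antioxidant response elements and raises the transcription of enzymes that make glutathione, reduce thioredoxin and detoxify quinones and heme. Metallothioneins are small cysteine-rich proteins that bind zinc and copper and are induced through metal response elements by the factor MTF1.

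Values are log2 RMA expression values, so a difference of 1 is a doubling, and the levels of separate genes cannot be ranked, since each probe set has its own affinity. The pools held RNA of several tissues. Of 15 RPE markers 14 passed the filter, with list means of 9.34 to 9.55 in albino and 9.51 to 9.79 in pigmented pools, and Rpe65, the retinoid isomerase gene of mature RPE, was below it. All 14 read lower in albino pools. Skeletal muscle markers read higher in albino pools for 12 of 12 genes, with list means of 8.68 to 9.39 against 7.18 to 8.12. Macrophage markers did so for 8 of 10 genes, with a mean difference of 0.17 log2 units. Neural retina and lens markers went the other way, with 0 of 6 and 0 of 7 genes higher in albino pools. Neural retina, lens and tissue outside the eye were all dissected away per the labels. The lens list mean was 4.96 in albino replicate 3 and 7.06 to 7.29 in the other 5 pools. The part of these tissues in the differences given next was not tested, and in such bulk samples fewer cells of a type and less RNA per cell cannot be told apart.

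No antioxidant gene passed the test between the genotypes. In limma 0 of 30 genes reached an adjusted p under 0.05 (smallest adjusted p = 0.999), as did 0% of the 23591 probe sets tested. At an unadjusted p under 0.05, limma gave 1 of the 30, against a background of 4.79% of all genes. Albino pools read higher for 18 genes (60%) and lower for 10, with 2 at no difference, and 63.8% of all genes read higher. The median difference, albino minus pigmented, was 0.04 on the log2 scale, and over all 12098 genes it was 0.043. This split depends on the scaling, with 12 higher and 18 lower after median centring and 15 of each after cyclic loess. Of all genes, 38.7% read higher after median centring and 51.4% after cyclic loess.

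The differences of the 30 genes lay between -0.30 (Nqo1) and 0.21 (Hmox1). All 30 were within 0.3 of 0, as were 94.4% of all genes. The 95% confidence interval stayed within 0.5 log2 units of 0 for 22 genes and within 1 unit for 29, the exception being Mt3. These intervals, more than the estimates, state what the 6 arrays can say about each gene. For 22 of the 30 genes the larger of the 2 genotypes' SDs over pools exceeded the difference between the genotypes.

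**Figure D1:**
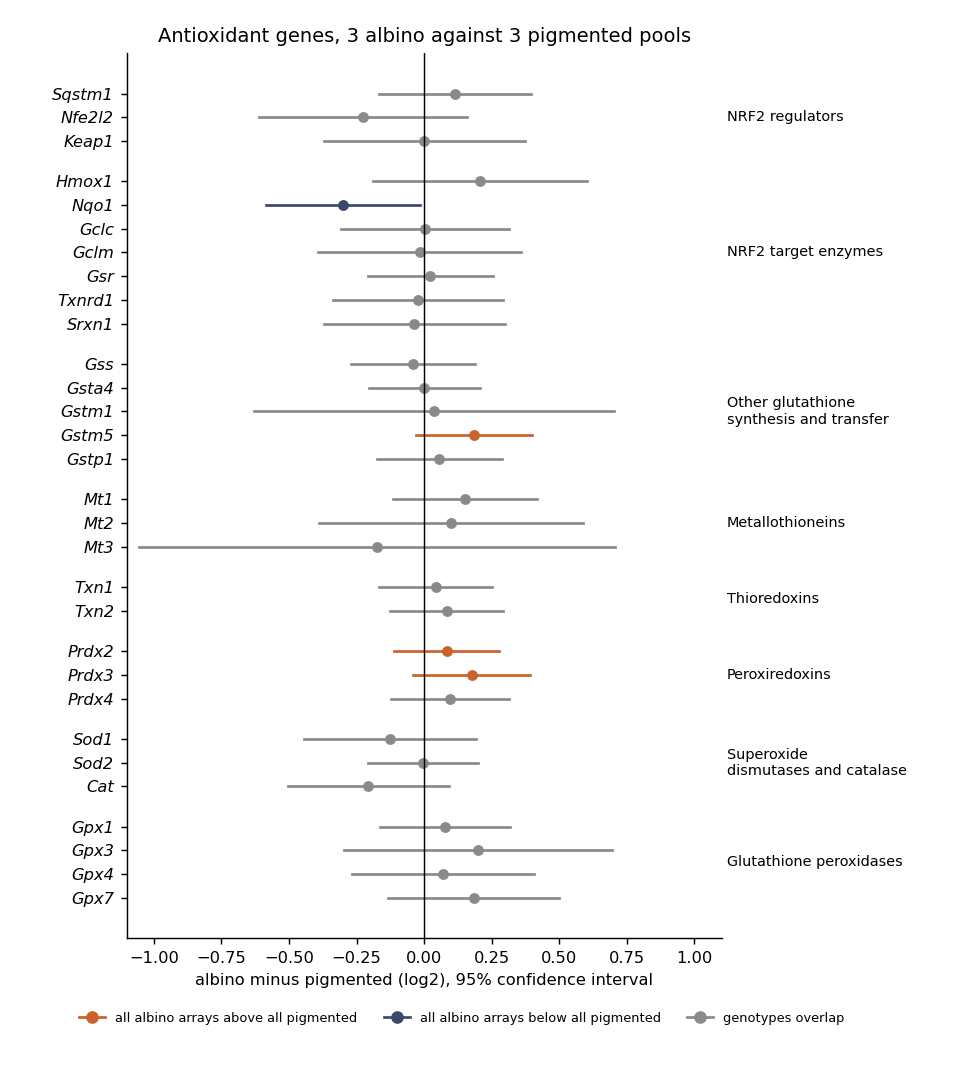
Difference between albino and pigmented pools in log2 units on the horizontal axis for each of the 30 genes, grouped by role, with points for the limma estimate and bars for its 95% confidence interval. Of these intervals, 29 hold 0, and that of Nqo1 ends at -0.014.

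**Figure D2:**
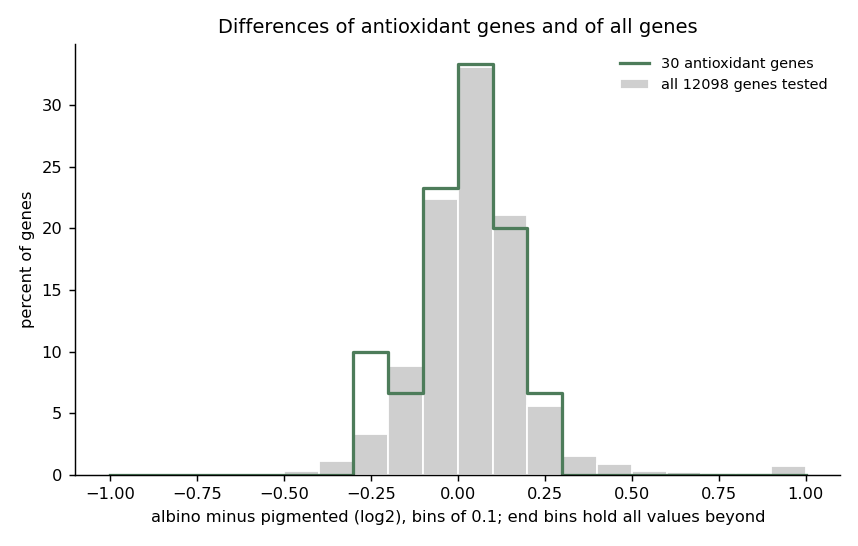
Share of genes in percent by the difference between albino and pigmented pools in log2 bins of 0.1, for all 12098 genes tested (grey bars) and the 30 antioxidant genes (green line). All 30 antioxidant genes lie within 0.3 of 0, with a median of 0.04 against 0.043 for all genes.

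The genotypes did not overlap for 4 of the 30 genes, 3 of them higher in albino pools (Gstm5, Prdx2 and Prdx3) and 1 lower (Nqo1). Over all genes 11.3% had genotypes that did not overlap, 7.97% with albino higher and 3.38% with albino lower, so the members' share is close to the background. Without both replicate 1 arrays, which stand apart as described below, the genotypes did not overlap for 16 of the 30 genes, against 47.6% of all genes. The count was 12 without pigmented replicate 1 alone (35.6% of all genes) and 8 without albino replicate 1 alone (22.8%). With fewer arrays, groups fail to overlap more often by arrangement alone. Each count can thus be read only against its own share of all genes.

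With the replicate number as a block in limma, again 0 of the 30 genes passed (smallest adjusted p = 0.192), as did 0% of probe sets. At an unadjusted p under 0.05 the blocked limma fit gave 8 genes, against 16.9% of all genes. Of these, 5 were higher in albino pools (Hmox1, Gstm5, Prdx3, Gpx3 and Gpx7), against 11.3% of all genes, and 3 were lower (Nqo1, Mt3 and Cat), against 5.54%.

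**Figure D3:**
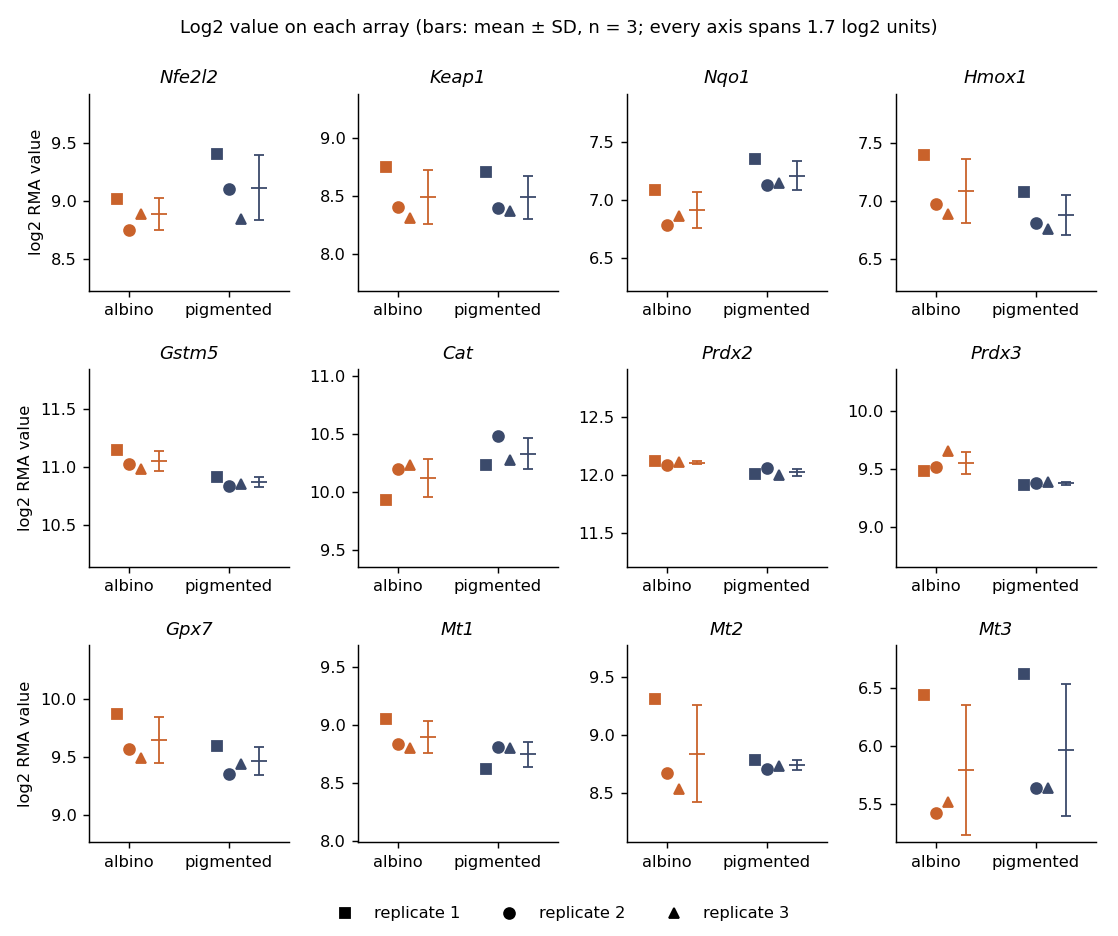
Log2 RMA value on every array for 12 antioxidant genes, with albino pools in orange, pigmented pools in blue, a symbol for each replicate number and bars for the mean ± SD (n = 3). Nqo1, Gstm5, Prdx2 and Prdx3 show no overlap between the genotypes, and the replicate 1 arrays of Mt3 (6.44 and 6.62) stand above the other pools of both genotypes.

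Among the NRF2 regulators, Nfe2l2 itself read 9.02, 8.75 and 8.89 in albino pools against 9.40, 9.10 and 8.84 in pigmented pools. Pigmented replicates 1 and 2 were higher than every albino array, while pigmented replicate 3 fell between albino replicates 2 and 3. The means were 8.89 ± 0.14 and 9.11 ± 0.28 (SD, n = 3 each), a difference of -0.23 (SE 0.16, 95% confidence interval -0.61 to 0.16, limma adjusted p = 0.999). Keap1, whose protein holds NRF2 in check, read 8.75, 8.40 and 8.31 in albino against 8.70, 8.39 and 8.37 in pigmented pools. Both genotypes had the same mean of 8.49, with a confidence interval of -0.37 to 0.37, and in both replicate 1 was the high array. The other Keap1 probe set, however, separated the genotypes, with 6.72, 6.59 and 6.57 in albino against 6.44, 6.40 and 6.27 in pigmented pools. It gave 0.26 (SE 0.10) and did not pass either (limma adjusted p = 0.999). Sqstm1, which encodes the p62 protein that can displace NRF2 from KEAP1 and is itself an NRF2 target, differed by 0.11 (SE 0.12).

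Of the 7 NRF2 target enzymes, 3 read higher and 4 lower in albino pools, with a median of -0.017. After median centring and after cyclic loess, 1 of the 7 read higher. Nqo1, the quinone reductase gene, had the smallest p of all 30 genes in limma (0.0425 before adjustment, adjusted p = 0.999). It read 7.08, 6.78 and 6.86 in albino against 7.35, 7.13 and 7.14 in pigmented pools. Each albino array was below all pigmented arrays, though albino replicate 1 lay only just below pigmented replicate 2. The means were 6.91 ± 0.16 and 7.21 ± 0.12 (SD, n = 3 each), and the difference of -0.30 (SE 0.12) is 0.812-fold, with an interval of 0.666 to 0.991. Between arrays of the same number the difference was -0.27, -0.35 and -0.28. It kept its sign under each of the 17 alternatives, from -0.39 to -0.23, and its adjusted p in limma was smallest, 0.0943, when replicate 1 formed a block of its own.

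Hmox1 encodes heme oxygenase, which breaks down heme and is a classic oxidant-induced gene. It read 7.40, 6.98 and 6.89 in albino against 7.08, 6.81 and 6.76 in pigmented pools. Within each replicate number the albino pool was the higher, by 0.32, 0.17 and 0.13, but the genotypes overlapped. The difference was 0.21 (SE 0.17, limma adjusted p = 0.999), and without albino replicate 1 it was 0.052. Erythroid (red blood cell) markers had a list mean of 9.54 on the array of albino replicate 1 and of 8.90 to 9.11 on the other 5 arrays. The part of erythroid and macrophage RNA in this difference was not tested.

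For the other 5 NRF2 target enzymes, all differences were smaller than their SE. Gclc and Gclm, the catalytic and modifier subunits of glutamate-cysteine ligase, which sets the pace of glutathione synthesis, differed by 0.0033 (SE 0.13) and -0.017 (SE 0.16). Gsr, the glutathione reductase gene, differed by 0.023 (SE 0.10). Txnrd1, the cytosolic thioredoxin reductase gene, differed by -0.023 (SE 0.13) and Srxn1, the sulfiredoxin gene whose product repairs overoxidised peroxiredoxins, by -0.037 (SE 0.14). Some further probe sets of these genes lay close to the chosen ones. They gave 0.06 (SE 0.11) for Gsr, -0.077 (SE 0.13) for Txnrd1 and -0.06 (SE 0.12) for Srxn1. Others departed more. The other Gclc probe set gave 0.22 (SE 0.25), and the other Gclm probe set gave -0.21 (SE 0.10) with genotypes that did not overlap. The remaining Srxn1 probe set gave -0.39 (SE 0.29).

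Among the other glutathione genes, Gstm5, a mu-class glutathione transferase gene, read 11.15, 11.03 and 10.99 in albino against 10.92, 10.84 and 10.86 in pigmented pools. All albino arrays lay above all pigmented arrays. The means were 11.06 ± 0.08 and 10.87 ± 0.04 (SD, n = 3 each), a difference of 0.18 (SE 0.09, 95% confidence interval -0.032 to 0.40, limma adjusted p = 0.999). Its sign held under every alternative, from 0.11 to 0.22. Gstm1, of the same class, read 0.037 higher in albino pools with a wide interval of -0.63 to 0.70, and after median centring it read lower by the same size (-0.037). Its probe set carries the suffix of probes that may also match related sequences. Gss, the glutathione synthetase gene, differed by -0.04, the pi-class transferase gene Gstp1 by 0.057, and Gsta4, whose product clears the lipid peroxidation aldehyde hydroxynonenal, by 0 (95% confidence interval -0.21 to 0.21).

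The 3 metallothionein genes are neighbours on a single chromosome and did not vary alike over the pools. Mt1 read 9.05, 8.83 and 8.80 in albino against 8.62, 8.81 and 8.80 in pigmented pools. Replicates 2 and 3 of both genotypes were nearly equal, and the difference of 0.15 (SE 0.11) came from the replicate 1 arrays, which differed by 0.43. Mt2 read 9.31, 8.67 and 8.53 against 8.78, 8.70 and 8.73. Here too albino replicate 1 was the high array, and the difference of 0.10 (SE 0.20) turned to -0.14 without albino replicate 1 and to -0.12 without both replicate 1 arrays. Mt1 gave 0.01 without them.

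Mt3, the form known best from brain, read 6.44, 5.42 and 5.52 in albino against 6.62, 5.64 and 5.64 in pigmented pools. Its replicate 1 arrays stood about 1 log2 unit above the others in both genotypes, by 0.97 in albino and 0.98 in pigmented pools. This gave it the widest interval of the 30 genes, -1.05 to 0.71, around a difference of -0.17 (SE 0.37). That difference was -0.50 without albino replicate 1 and 0.15 without pigmented replicate 1. Between arrays of the same number the differences were close, at -0.18, -0.22 and -0.12, and the SE fell to 0.057 with the replicate block (limma adjusted p = 0.238). None of the 3 genes passed in either fit, with 0.387 the smallest adjusted p in limma for Mt1 over all alternatives, 0.52 for Mt2 and 0.165 for Mt3. Neural retina markers, of the nearest neural tissue, had list means of 5.94 to 6.49 in albino and 6.31 to 6.87 in pigmented pools, lowest on replicate 1 in both (5.94 and 6.31), and their part in the Mt3 values was not tested.

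Promoter sequences were read from RefSeq (GRCm38.p6) for 28 of the 34 listed genes, with 34 start sites, as windows of 250 bases before to 50 after the start. They were searched on both strands for the core of the antioxidant response element, TGACNNNGC, and for that of the metal response element, TGCACNC or TGCGCNC. The antioxidant core was found at 8 of 34 start sites (23.5%), against 12.4% of all 32851 promoters. These belonged to Gclm, Txnrd1, Srxn1, Gstm5, Mt2, Prdx1, Sod1 and Nfe2l2. The metal core was found at 10 of 34 start sites (29.4%), against 25.7% of all promoters. These belonged to 9 of the 28 genes, since the 2 Gstm1 windows overlap and hold the same match. Start sites of a gene are therefore not independent. Of all promoters, 1.97% hold 3 or more matches, and these were found for Mt1 (3), Mt2 (4) and Gclm (3). A match is a run of letters and not a measured binding site. Bases outside these windows were not searched, and no promoter was at hand for Hmox1, Gclc, Gsr, Gsta4, Prdx6 and Sod3.

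The 250 bases before the start are shown for the metallothionein pair, for Gclm and Gstm5, which hold both cores, for Nfe2l2, the regulator itself, and for Nqo1, the gene with the smallest p. Capitals mark the matches, and in Gclm an antioxidant and a metal match overlap.
Mt1 (chr8:94178839-94179088, plus strand): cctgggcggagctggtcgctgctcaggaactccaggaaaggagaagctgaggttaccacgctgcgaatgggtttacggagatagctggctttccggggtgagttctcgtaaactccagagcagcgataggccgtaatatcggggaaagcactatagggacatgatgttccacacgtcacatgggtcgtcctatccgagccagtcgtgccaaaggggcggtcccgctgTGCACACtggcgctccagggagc
Mt2 (chr8:94172368-94172617, plus strand): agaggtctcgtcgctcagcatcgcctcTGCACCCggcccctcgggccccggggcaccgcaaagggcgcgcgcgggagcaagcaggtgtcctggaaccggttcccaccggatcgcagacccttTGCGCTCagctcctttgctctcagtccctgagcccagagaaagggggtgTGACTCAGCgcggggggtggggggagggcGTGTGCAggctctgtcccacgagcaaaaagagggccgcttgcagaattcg
Gclm (chr3:122245307-122245556, plus strand): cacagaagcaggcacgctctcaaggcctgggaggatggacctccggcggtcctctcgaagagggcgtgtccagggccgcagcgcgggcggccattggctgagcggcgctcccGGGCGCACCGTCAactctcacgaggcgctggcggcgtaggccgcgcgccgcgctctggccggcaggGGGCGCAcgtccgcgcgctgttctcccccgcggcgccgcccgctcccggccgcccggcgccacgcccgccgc
Gstm5 (chr3:107895604-107895853, plus strand): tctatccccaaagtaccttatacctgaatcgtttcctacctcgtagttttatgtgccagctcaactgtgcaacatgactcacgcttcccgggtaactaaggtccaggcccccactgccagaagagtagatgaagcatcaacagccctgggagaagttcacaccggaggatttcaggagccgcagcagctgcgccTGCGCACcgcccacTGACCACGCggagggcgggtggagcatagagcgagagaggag
Nfe2l2 (chr2:75704664-75704913, minus strand): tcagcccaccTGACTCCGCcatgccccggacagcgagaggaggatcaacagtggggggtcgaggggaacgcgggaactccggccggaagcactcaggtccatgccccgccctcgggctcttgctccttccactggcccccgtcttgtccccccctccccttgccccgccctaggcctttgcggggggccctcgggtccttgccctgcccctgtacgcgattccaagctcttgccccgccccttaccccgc
Nqo1 (chr8:107403206-107403455, minus strand): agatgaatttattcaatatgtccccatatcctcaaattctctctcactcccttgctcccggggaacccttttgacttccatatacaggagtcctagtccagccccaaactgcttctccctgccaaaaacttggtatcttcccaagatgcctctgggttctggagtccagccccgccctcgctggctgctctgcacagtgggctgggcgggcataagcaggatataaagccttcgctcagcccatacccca
Mt1 holds 1 metal core in this stretch and 2 more within 50 bases after the start. Mt2 holds 3 metal cores and 1 antioxidant core in it and a further metal core after the start. The Nqo1 stretch holds neither core, and bases further upstream were not searched. Of these 6 genes, Nqo1 and Gstm5 had genotypes that did not overlap, in opposite directions, while Gclm and Mt2 differed by less than their SE.

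Thioredoxins are the small dithiol proteins that hand electrons to peroxiredoxins. Txn1, the cytosolic form, differed by 0.043 (SE 0.09, 95% confidence interval -0.17 to 0.25). The mitochondrial form Txn2 differed by 0.08 (SE 0.09, 95% confidence interval -0.13 to 0.29). A second Txn1 probe set gave -0.15, and the other Txn2 probe sets gave -0.0033 and 0.17.

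Peroxiredoxins, the abundant thiol peroxidases, read higher in albino pools for all 3 genes measured alone, with a median of 0.10, and they did so under median centring and cyclic loess as well (3 of 3 each). This does not hold for the whole family as probed. The 5 probe sets that name Prdx1 together with a predicted gene all read lower in albino pools, by -0.03 to -0.50 (see Other observations). Prdx3, the mitochondrial form, read 9.48, 9.52 and 9.66 in albino against 9.36, 9.38 and 9.39 in pigmented pools. The pigmented pools agree closely and all albino arrays lie above them, with albino replicate 3 the highest. The means were 9.55 ± 0.09 and 9.38 ± 0.02 (SD, n = 3 each), a difference of 0.18 (SE 0.09, limma adjusted p = 0.999).

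Prdx2, a cytosolic form that is also abundant in red blood cells, read 12.12, 12.09 and 12.11 in albino against 12.01, 12.06 and 12.00 in pigmented pools. The genotypes did not overlap, but the gap was small, with a difference of 0.08 (SE 0.08, limma adjusted p = 0.999), and of 0.01 after median centring. Its other probe set gave 0.16 (SE 0.10), also without overlap. The erythroid list means overlapped between the genotypes (8.90 to 9.54 in albino, 8.98 to 9.11 in pigmented pools), and their part was not tested. Prdx4, the form of the secretory pathway, differed by 0.10 (SE 0.09), but its remaining pair of probe sets read lower in albino pools (-0.27 each).

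Superoxide dismutases turn superoxide into hydrogen peroxide, and catalase removes the peroxide. With the probe set chosen for each, all 3 genes of this group read lower in albino pools under each of the 3 scalings, with a median of -0.13. Cat read 9.93, 10.20 and 10.23 in albino against 10.23, 10.48 and 10.27 in pigmented pools. Albino replicate 3 and pigmented replicate 1 had the same value, so the genotypes met, and albino replicate 1 was the low array. The difference was -0.21 (SE 0.12, 95% confidence interval -0.50 to 0.091, limma adjusted p = 0.999), while the second Cat probe set gave -0.02 (SE 0.12).

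Sod1, the cytosolic copper and zinc enzyme, differed by -0.13 (SE 0.13), and most of this came from pigmented replicate 1 (11.99 against 11.55 to 11.69 in albino pools). Without that array it differed by 0.0033, and the other Sod1 probe sets gave 0.0067 (SE 0.16) and -0.063 (SE 0.11). Sod2, the mitochondrial manganese enzyme, was alike in both genotypes at 9.13 ± 0.04 and 9.13 ± 0.06 (SD, n = 3 each), a difference of -0.0033 with an interval of -0.21 to 0.20. Its other probe sets gave 0.013 and 0.0033.

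Most glutathione peroxidases reduce peroxides with glutathione. All 4 listed genes of the family read higher in albino pools, with a median of 0.13. After median centring Gpx4 turned to -0.0033, and after cyclic loess all 4 stayed higher. Gpx7, a form of the endoplasmic reticulum, read 9.87, 9.57 and 9.49 in albino against 9.59, 9.35 and 9.44 in pigmented pools. The genotypes overlapped, and in both replicate 1 was the high array. Its difference was 0.18 (SE 0.13, limma adjusted p = 0.999). Gpx3, the secreted plasma form, differed by 0.20 (SE 0.21), and by 0.16, 0.27 and 0.17 between arrays of the same number. Gpx1, the cytosolic form, differed by 0.08 (SE 0.10), and Gpx4, which reduces lipid peroxides in membranes, by 0.07 (SE 0.14).

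Differences between pools of a genotype were often larger than those between genotypes. The replicate 1 array was above both other arrays in albino and in pigmented pools for 21 of the 30 genes (70%), and this was so for 60.2% of all genes, so it is not particular to these genes. Besides Mt3, the gap to the mean of replicates 2 and 3 was large for Gstm1 (0.56 in albino and 0.81 in pigmented pools), Gpx3 (0.48 and 0.55), Hmox1 (0.46 and 0.29) and Keap1 (0.40 and 0.32). The gap was of opposite sign in the genotypes for Mt1 (0.23 and -0.18). Mt2 had a large gap in albino pools alone (0.71 and 0.065). Gclm ran the other way in pigmented pools (-0.05 and -0.48), and Cat was low in replicate 1 of both (-0.28 and -0.14). Immediate early and heat shock genes, which respond to tissue handling, had list means of 8.25 and 8.11 on the replicate 1 arrays and 7.80 to 7.95 on the other 4, and their part was not tested.

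**Figure D4:**
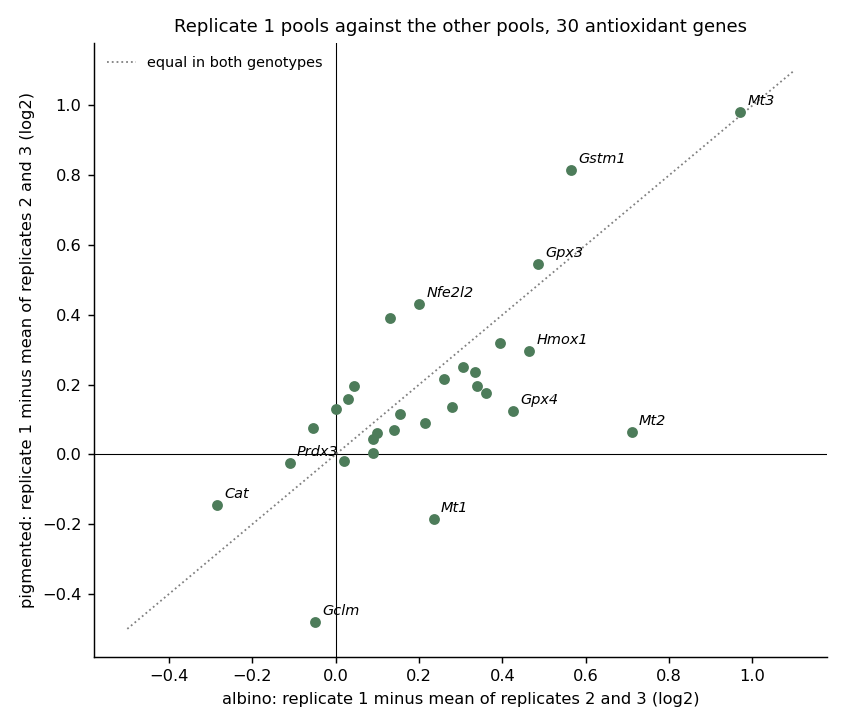
Replicate 1 minus the mean of replicates 2 and 3 in log2 units, for albino pools on the horizontal axis and pigmented pools on the vertical axis, with a point for each of the 30 genes and a dotted line of equal gaps. Mt3 lies at 0.97 and 0.98, Mt2 lies far from the line (0.71 and 0.065), and 21 genes have a replicate 1 array above both other arrays in both genotypes.

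Probe sets of the same gene give a second reading of each difference. For 16 of the 30 genes a further 22 probe sets passed the filter, and 9 of these, from 6 genes, had the sign opposite to the probe set chosen. The 6 genes were Txn1, Txn2, Gstm1, Prdx4, Sod1 and Sod2. With the probe sets of a gene averaged, Prdx4 turned from 0.10 to -0.15. The genotypes did not overlap for 3 of the 22, from Gclm (lower), Prdx2 (higher) and Keap1 (higher).

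**Figure D5:**
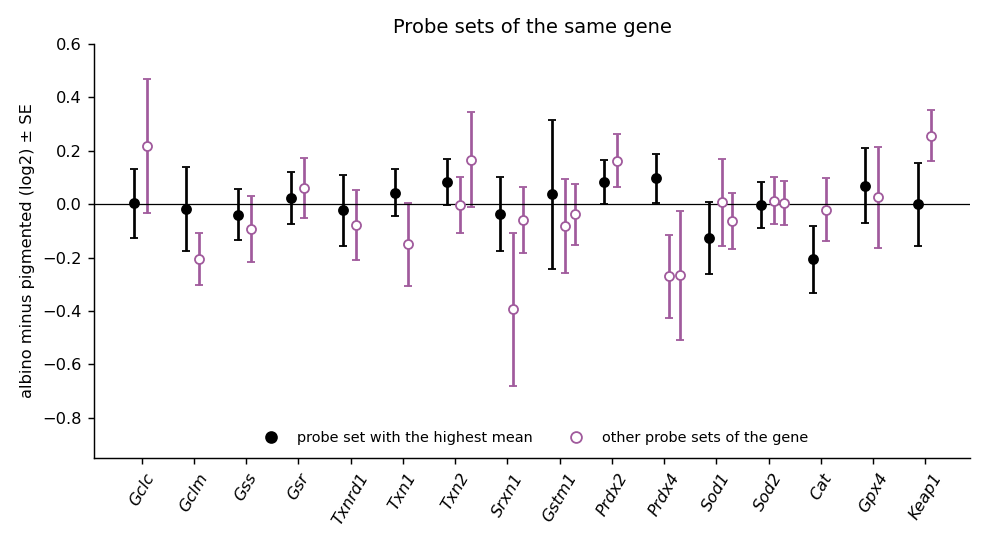
Difference between albino and pigmented pools in log2 units, with SE bars, for the probe set with the highest mean (filled) and the other passing probe sets (open) of the 16 genes that have more than 1. The open points lie on the other side of 0 for 6 genes, most clearly for Prdx4 (0.10 against -0.27).

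Other genes of the same pathways were taken from a list of 74 further redox and metal genes, of which 64 were measured above the filter. In limma 0 of the 64 passed. At an unadjusted p under 0.05 limma gave 2 of them, against 4.79% of all genes. With the replicate block it gave 15 (23.4%), 12 higher and 3 lower, against 16.9% of all genes, and again none passed after adjustment. Albino pools read higher for 44 and lower for 20, with a median of 0.055, beside 63.8% of all genes higher. After median centring 29 read higher and 35 lower, beside 38.7% of all genes higher. The genotypes did not overlap for 7 (6 higher, 1 lower), or 10.9%, against 11.3% of all genes.

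The 6 genes named next had the smallest p of the 64. Gstz1, the maleylacetoacetate isomerase gene of tyrosine breakdown, read 7.24, 7.30 and 7.22 in albino against 6.95, 6.92 and 7.01 in pigmented pools, without overlap. It differed by 0.29 (SE 0.08, limma adjusted p = 0.875). Me1, the cytosolic malic enzyme gene that supplies NADPH and an NRF2 target like Nqo1, read 7.89, 7.64 and 7.69 against 8.26, 8.02 and 8.10. It was lower in albino pools without overlap, by -0.39 (SE 0.11, limma adjusted p = 0.886). The transferase genes Gstm7 (0.25, SE 0.12) and Gstm6 (0.19, SE 0.10) did not overlap, and Gstk1 (0.24, SE 0.12) and Gstt2 (0.23, SE 0.12) did. Not all transferase genes read higher, with Gsto1 at -0.24 (SE 0.15), Mgst1 at -0.09 (SE 0.11), Gstt1 at -0.03 (SE 0.13) and Gstm4 at -0.0033 (SE 0.18), a set chosen after the values were seen.

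Of all genes 63.8% read higher in albino pools as deposited, 38.7% after median centring and 51.4% after cyclic loess. By group, the 15 other glutathione genes had 11 higher and 4 lower in albino pools, with a median of 0.19. Median centring left 9 higher, with a median of 0.12, and cyclic loess left 10, with a median of 0.17. With the replicate block, limma gave 8 of these 15 (53.3%) at an unadjusted p under 0.05, all higher, and none passed after adjustment. Over all genes the blocked fit gave 11.3% higher and 16.9% in either direction. Without the block limma gave 1 of the 15, against 4.79% of all genes. The blocked fit gave 5 of 15 other NRF2 targets (2 higher, 3 lower) and 1 of 10 other thioredoxin and glutaredoxin genes. It gave 1 of 8 methionine sulfoxide repair and other redox genes, 0 of 8 metal handling genes and 0 of 8 NRF2 partners and repressors. The 10 other thioredoxin and glutaredoxin genes had 8 higher (6 after median centring, 7 after cyclic loess; median 0.09).

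The shares of all genes just given apply to the next groups too. The 8 genes of methionine sulfoxide repair and other redox steps had 7 higher, 4 under each other scaling, with a median of 0.07. The 8 metal handling genes had 6 higher, with a median of 0.03 that turned to -0.05 after median centring and -0.01 after cyclic loess. The 8 NRF2 partners and repressors had 5 higher (2 after median centring, 5 after cyclic loess; median 0.03). Among the 15 other NRF2 targets 7 read higher and 8 lower, with a median of -0.043, which was -0.12 after median centring and -0.06 after cyclic loess.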

How the data were processed

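Each array measured RNA of a pool of tissue labelled as RPE. The authors deposited log2 RMA expression values per probe set, made with Affymetrix Expression Console 1.1 and RMA per the submitters' processing notes. RMA makes the distributions of arrays alike, so a difference is read relative to the rest of the array. Array medians over all probe sets were 5.19 to 5.22, and no batch is named for the arrays. Median centring, an alternative, used instead the array medians of the 23591 probe sets that passed the filter. The number of arrays limits the precision.

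Of 45101 probe sets, 64 were controls, 34945 matched 1 gene in the platform annotation, 932 matched several and 9160 none. Controls and probe sets under a mean of 5 were left out, which kept 23591. The test was limma 3.58.1 under R 4.3.3 (a linear model with eBayes, two-sided, Benjamini-Hochberg over all 23591, threshold 0.05), tested on simulated data. All p-values of genes come from this model, with 3 pools a genotype. Errors are SD over pools or the SE of the estimate.

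The main test had no term for the replicate number. Deviations from the genotype means correlated at 0.863, 0.687 and 0.448 between arrays numbered 1, 2 and 3. On that ground alone, with none in the labels, same-numbered arrays were treated as pairs in the blocked fit and in the differences by number. Albino replicate 2 correlated as closely with pigmented replicate 3 (0.693), and the gap between replicates 2 and 3 in albino pools correlated at -0.077 with that in pigmented pools, so beyond replicate 1 these data do not show that the numbers pair.

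The members, roles and lists were chosen with earlier results of these data known. Values on every array are given for Nfe2l2, Keap1, the metallothioneins, members whose genotypes do not overlap and those with the 8 smallest p, and from the other pathway genes the 6 with the smallest p. Prdx1 was left out of the list by the rule. Alternatives covered scaling, the filter, the choice of probe set, blocks, array weights, a variance trend and leaving out arrays. No protein sequences were used here.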

Additional observations from a re-analysis of the deposited data

How the results depend on the processing

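Over 508 member values under 17 alternatives, 0 passed the threshold in limma (smallest adjusted p = 0.0943, largest 1). The sign turned 50 times, and 1 of these was among the 10 genes whose difference exceeded its SE. It was Prdx4, which gave -0.15 (-0.1467) with all probe sets of a gene averaged. The replicate block changed no call.

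After median centring 18 of the 30 genes read lower and their median was -0.033. The genotypes did not overlap for 16 of the 30 genes without both replicate 1 arrays, against 47.6% of all genes. At an unadjusted p under 0.05 stood, with the share of all genes in parentheses, 2 genes after cyclic loess (6.59%), 0 with no filter (3.83%), 8 with the replicate block (16.9%), 8 with a block for replicate 1 (20.2%), 4 without both replicate 1 arrays (12.1%), 3 with array weights (14.5%) and 2 with a variance trend (4.81%). For the other pathway genes, median centring gave 29 higher and a median of -0.018, and cyclic loess a median of 0.019. Their genotypes did not overlap for 7 of 64 genes as deposited, for 13 after cyclic loess (14.6% of all genes) and, on the deposited scale, for 35 without both replicate 1 arrays (47.6% of all genes). Role medians moved with median centring to -0.073 (NRF2 regulators), -0.09 (NRF2 targets), -0.037 (other glutathione genes) and -0.01 (thioredoxins). Those of the regulators were -0.045 after cyclic loess and 0.11 with probe sets averaged, and those of the other glutathione genes 0.10 both without replicate 1 arrays and with array weights.

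Leaving out 1 array at a time gave, for the 30 genes, 14 to 26 higher, 4 to 15 lower, 4 to 12 without overlap, 0 to 1 at an unadjusted p under 0.05 and medians of -0.014 to 0.088. Over all genes 44.9% to 74.8% were higher, 14.4% to 35.6% were without overlap and 2.55% to 5.73% at that p. For the other pathway genes it gave 30 to 50 higher, 8 to 24 without overlap (the same shares of all genes apply) and medians of -0.0058 to 0.12. Role medians ranged from -0.13 to 0.11 (regulators), -0.098 to 0.052 (targets), -0.03 to 0.11 (other glutathione genes), -0.14 to 0.20 (metallothioneins), 0.032 to 0.099 (thioredoxins), 0.072 to 0.14 (peroxiredoxins), -0.20 to 0.0033 (dismutases and catalase) and 0.022 to 0.19 (glutathione peroxidases). Mt3 is not measured above a mean of 6, and Mt1 has no probe set left without those ending in _x_at or _s_at.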

Other observations

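All 5 probe sets that name Prdx1, a cytosolic peroxiredoxin gene, also name the predicted gene Gm21399, so none of their values can be given to Prdx1 alone. All 5 read lower in albino pools, by -0.50 (SE 0.13), -0.25 (SE 0.13), -0.25 (SE 0.09), -0.16 (SE 0.13) and -0.03 (SE 0.08). The probe set at -0.50 read 11.42, 11.60 and 11.69 in albino against 12.19, 12.14 and 11.88 in pigmented pools, without overlap, and did not pass (limma adjusted p = 0.728, and 0.198 with the replicate block). The genotypes did not overlap for 2 of the 5, with albino lower. Over all genes 11.3% had genotypes that did not overlap, and 3.38% had albino lower. The 5 probe sets share their annotation and their arrays, so they do not count as separate genes. The probe set at -0.03 read 11.78, 11.72 and 11.75 against 11.84, 11.78 and 11.72, so probe sets with the same annotation gave differences from near 0 to -0.50.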
